A study of Mus musculus with 6 samples.

Results

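The proteasome is the ATP-driven protease that degrades ubiquitin-tagged proteins, and its transcripts were followed here in mouse MLL-AF9 cells of Alox5-/- and WT genotype. The gene family was picked with earlier results of these data known, and its members were then taken by symbol, with no value used: every row of the deposited count table whose symbol is Psma, Psmb, Psmc, Psmd, Psme, Psmf or Psmg followed by a number, plus Pomp, which gave 49 of 46983 genes. The study compared 2 genotypes of C57BL/6J mice with 3 libraries each. Donor stem and progenitor cells sorted as lineage-negative, Sca-1+ and c-Kit+ (LSK) came from Alox5-/- or wild-type (WT) bone marrow, were transduced with a retrovirus that carries the human leukemia fusion MLL-AF9, and the GFP+ cells went into irradiated C57BL/6J recipients. The labels do not state whether the sequenced cells were recovered from those recipients. Both groups carry the retroviral MLL-AF9 and both were untreated, so Alox5 in the donor cells is the labelled difference. The labels give no ages, do not say which mice or transductions the biological replicates came from, and name each genotype as 1 cell line, so the p-values reflect library-to-library spread alone, which may be technical. Fewer cells of a kind and less RNA per cell cannot be told apart in such bulk samples.

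As background, the 20S core is a barrel in which outer rings of alpha subunits (Psma genes) gate the entry and inner rings of beta subunits (Psmb genes) hold the proteolytic sites. The 19S cap recognises ubiquitin and unfolds substrates with a ring of ATPases (Psmc genes) and a set of non-ATPase subunits (Psmd genes). Dedicated chaperones (Psmg genes and Pomp) build the core, other activators (Psme genes) can replace the cap, and in immune cells or under interferon the inducible subunits Psmb8, Psmb9 and Psmb10 take the places of the constitutive proteases Psmb5, Psmb6 and Psmb7. Proteasome inhibitors are used as drugs against some blood cancers.

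Most proteasome transcripts were lower in Alox5-/- cells, by small amounts, in the core, the cap and the assembly factors. Of the 49 genes, 47 passed the filter on low counts, 30 of them fell in Alox5-/-, 2 rose and 15 were not called (edgeR quasi-likelihood test, Benjamini-Hochberg adjusted p under 0.05 over all 13705 tested genes). The background was wide, since 53.8% of all tested genes were called, 26.8% higher and 27.0% lower. Among the proteasome genes 63.8% were lower and 4.26% higher. The median log2 fold change of the 47 genes was -0.16, against 0.00 over the other 13658 tested genes, and 41 of the 47 values (87.2%) were below 0, against 49.9% of the others. The changes ranged from -0.37 to 0.17 on the log2 scale, and 43 of the 47 were under 1.2-fold. Since proteasome transcripts are abundant, the other 8262 tested genes within their range of mean CPM (13.0 to 356) were also counted: 33.1% of those were lower and 27.4% higher, with a median of -0.02.

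The libraries of the groups separated for most of these genes. The Alox5-/- libraries were all below the WT ones in 36 of 47, all above in 3, and overlapped them in 8, so that 83.0% did not overlap, against 60.0% of all tested genes. Summed over all 49 genes, proteasome transcripts took 6764, 6733 and 6750 CPM (TMM-scaled CPM, the count over the scaled library size) in Alox5-/- replicates 1 to 3 and 7384, 7479 and 7535 CPM in WT, and the mean fell by 9.60%. The sums differed from WT by -12.9% for the cap ATPases, -11.2% for the non-ATPases, -9.32% for the core assembly factors, -8.53% for the alpha ring, -6.88% for the constitutive beta ring, -6.64% for the activators and -3.25% for the inducible subunits. Each of these sums except that of the inducible subunits was lower in all 3 Alox5-/- libraries than in any WT library.

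**Figure D1:**
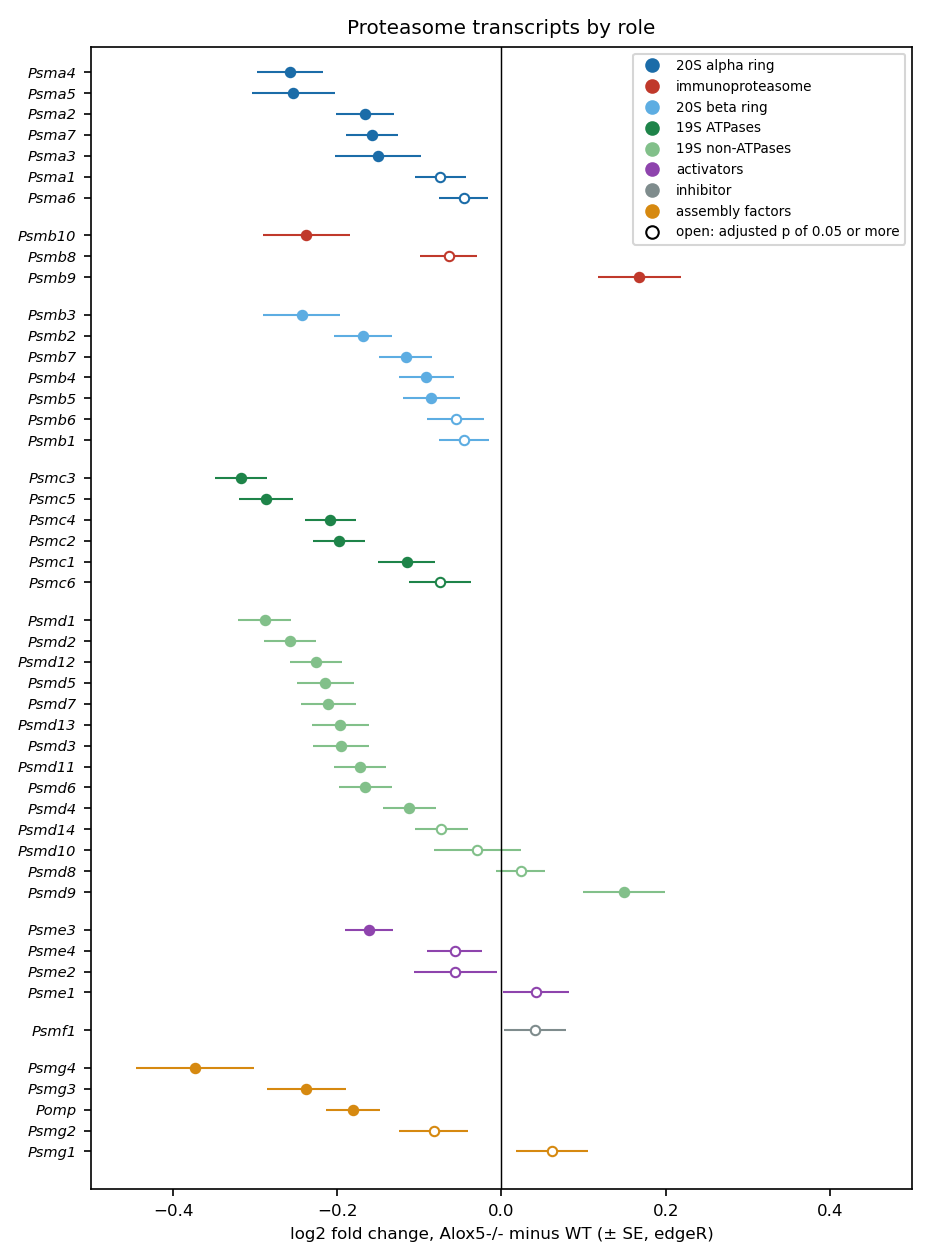
Log2 fold change (x axis, Alox5-/- minus WT, ± SE) of the 47 tested proteasome genes (y axis), coloured by role, with filled points for genes called at an adjusted p under 0.05. Points lie left of 0 for 41 genes, and Psmb9 and Psmd9 are the called genes on the right.

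**Figure D2:**
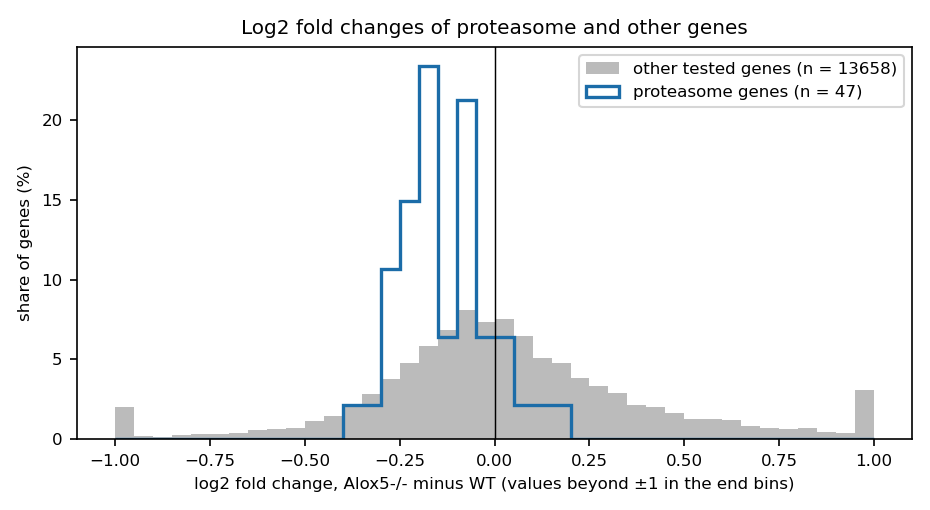
Share of genes (y axis, %) by log2 fold change (x axis, bins of 0.05, values beyond 1 in either direction placed in the end bins) for the 47 tested proteasome genes (line) and the other 13658 tested genes (grey). The proteasome genes run from -0.37 to 0.17 with a median of -0.16.

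Reads that fit more than 1 place were not counted, and many proteasome genes have processed copies, so the uniqueness of each gene was measured as the share of its 50-base transcript windows that recur in another annotated gene elsewhere. No window recurred for 24 of the 47 tested genes, and over 20% did for 3: Psma5 (49.1%), Psmb5 (47.4%) and Psme2 (28.3%). In the 44 other genes 28 were lower, 2 higher and 14 not called, and the median difference was -0.16 on the log2 scale. Another annotated gene overlaps 23 of the 47, and no source used here states the strand setting of the counting, so reads of such neighbours may be mixed. Of the 24 without such an overlap 14 were lower, 0 higher and 10 not called.

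Promoter sequence is shown for Psmb5, Psmb6, Psmb8, Psmb9, Psmb10 and Psmd9, which include both called rises. Textbook regulators of proteasome genes bind elements in promoters. NFE2L1 and NFE2L2 bind the antioxidant response element, and IRF and other interferon-activated proteins bind the elements that interferon uses. Binding at the promoters shown was not measured. The sequences are from RefSeq (GRCm38.p6), 5′ to 3′ on the gene's strand, within 250 bases before the gene's start and without annotated UTRs, or around a single match (Psmb8 and Psmb9) where an annotated UTR covers the window. The starts are those of RefSeq, and for Psmd9, Psmb8, Psmb9, Psmb10 and Psmb5 they lie inside the longer GENCODE gene models. Positions of these models are given with the values, except for Psmb5. Capitals mark matches to the 4 motifs searched on both strands: TGACNNNGC (antioxidant response element core), CCAAT (NF-Y), the interferon stimulated response element core and TTCNNNGAA (gamma activated site core). They lie at chr14:54618023-54618245 (minus strand) for Psmb5, chr11:70525107-70525356 (plus strand) for Psmb6, chr17:34198088-34198116 (plus strand) for Psmb8, chr17:34187331-34187348 (minus strand) for Psmb9, chr8:105938445-105938642 (minus strand) for Psmb10 and chr5:123227940-123228189 (plus strand) for Psmd9.
Psmb5: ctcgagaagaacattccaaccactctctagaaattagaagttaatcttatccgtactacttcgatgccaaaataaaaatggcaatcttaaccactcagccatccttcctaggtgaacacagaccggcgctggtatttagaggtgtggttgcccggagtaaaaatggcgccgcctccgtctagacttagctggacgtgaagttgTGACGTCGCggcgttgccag
Psmb6: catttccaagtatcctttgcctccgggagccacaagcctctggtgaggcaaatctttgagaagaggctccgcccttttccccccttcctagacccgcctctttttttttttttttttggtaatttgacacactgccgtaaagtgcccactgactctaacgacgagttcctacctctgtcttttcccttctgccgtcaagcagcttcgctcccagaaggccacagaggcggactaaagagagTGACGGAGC
Psmb8: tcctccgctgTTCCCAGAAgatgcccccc
Psmb9: gcagccgctgATTGGaaa
Psmb10: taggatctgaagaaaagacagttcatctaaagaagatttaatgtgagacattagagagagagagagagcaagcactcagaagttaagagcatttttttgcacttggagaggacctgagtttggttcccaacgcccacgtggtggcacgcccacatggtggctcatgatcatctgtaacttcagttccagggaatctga
Psmd9: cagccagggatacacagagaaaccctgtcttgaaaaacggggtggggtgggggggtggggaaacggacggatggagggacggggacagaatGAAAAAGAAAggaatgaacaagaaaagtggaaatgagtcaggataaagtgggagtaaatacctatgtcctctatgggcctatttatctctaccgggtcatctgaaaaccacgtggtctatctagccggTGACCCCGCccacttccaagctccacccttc

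Psmb5 had a TGACNNNGC match 47 to 39 bases before the start and Psmb6 had one 9 to 1 bases before it. Psmb8 had the TTCNNNGAA match 97 to 89 bases before, Psmb9 an inverted CCAAT 8 to 4 bases before, and the Psmb10 window held none of the 4. Psmd9 carried both a TGACNNNGC match (31 to 23 bases before) and an interferon stimulated response element core (159 to 150 bases before). RefSeq promoters were searched for 41 of the 49 genes. Members on chromosome 18, Psma8 and Psmg2, were left out of this search, whereas the set of all promoters was not restricted in this way. TGACNNNGC was in 5 of these 41 (12.2%), against 10.2% of all 32851 promoters of this length, and CCAAT was in 14 (34.1%), against 33.9%. The interferon stimulated response element core was in 3 (7.32%), against 2.98%, and TTCNNNGAA in 2 (4.88%), against 7.02%. For all 4 motifs the units differ: the 41 genes had 44 promoters and a gene counted if any held the match, while the 32851 are single promoters. Matches of different motifs did not overlap in any of the 41. Among the 25 genes that fell, 2 held TGACNNNGC and 8 held CCAAT, and among the other 16 the counts were 3 and 6. The interferon stimulated response element core was in 2 of the 25 and 1 of the 16, and TTCNNNGAA in 0 and 2. Besides Psmd9, the genes with the interferon stimulated response element core were Psmd4 and Psmb3, which both fell. These matches describe the letters of the windows and show no binding.

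In the alpha ring, which gates the core, 5 of 7 tested subunits fell and none rose. Psma4 fell furthest, with 114, 112 and 115 CPM in Alox5-/- replicates 1 to 3 and 128, 143 and 137 CPM in WT (log2 difference -0.26, with SE 0.04; edgeR adjusted p = 6.91e-05). Its WT libraries spread more widely than the Alox5-/- ones and the groups did not overlap. Psma5 (-0.25), Psma2 (-0.17), Psma7 (-0.16) and Psma3 (-0.15) fell as well, while Psma1 (-0.07; edgeR adjusted p = 0.0528) and Psma6 (-0.05; 0.213) were not called. Leaving out WT replicate 1 (edgeR adjusted p = 0.0526), WT replicate 3 (0.0814) or Alox5-/- replicate 2 (0.11) ended the Psma3 call, as did DESeq2 (adjusted p = 0.0705), upper-quartile scaling (0.0637), total counts as the only scaling (0.105) and no filter on low counts (0.0535). Psma1 was called lower without WT replicate 1 (edgeR adjusted p = 0.0468), with the robust fit (edgeR adjusted p = 0.048) and with limma-voom (adjusted p = 0.0455). All 7 tested alpha genes lay below WT in every library. Psma8, the alpha subunit of germ cells, had a count of 0 in all 6 libraries, which allows up to 0.0786 to 0.103 CPM.

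In the constitutive beta ring 5 of 7 tested subunits fell and none rose. Psmb3 (-0.24) and Psmb2 (-0.17), structural beta subunits, fell. Psmb5, the chymotrypsin-like protease that is the main target of bortezomib, had WT levels of 103, 99.7 and 105 CPM and Alox5-/- levels of 95.9, 97.9 and 96.8 CPM. This separation was narrow (log2 difference -0.09, with SE 0.03; edgeR adjusted p = 0.0472), and the call was lost under 12 of 15 alternative settings, with adjusted p-values up to 0.331, among them each left-out library except WT replicate 2. Psmb6, the caspase-like protease, had 144 CPM in each Alox5-/- library and 147, 146 and 156 CPM in the WT libraries, and was not called (-0.06; edgeR adjusted p = 0.195). Psmb7, the trypsin-like protease, fell from 177, 186 and 181 CPM in WT to 165, 169 and 169 CPM (log2 difference -0.12, with SE 0.03; edgeR adjusted p = 0.00707), with no overlap. That call was lost with total counts as the only scaling (edgeR adjusted p = 0.0726). Psmb4 (-0.09) fell, a call lost without Alox5-/- replicate 1 or 3 or WT replicate 1 or 3 (edgeR adjusted p from 0.0531 to 0.156), with upper-quartile scaling (0.121), total counts only (0.236), no filter (0.0635), at least 5 CPM in 3 libraries (0.0604) or the replicate block (0.0541), and Psmb1 (-0.05; edgeR adjusted p = 0.231) was not called. Psmb11, the beta subunit of thymic epithelium, had at most 1 count in any library and was not tested.

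Of the 3 inducible subunits 1 rose, 1 fell and 1 was not called. These shares, 33.3% in each direction, were near the 26.8% of all tested genes that were higher and the 27.0% that were lower. Psmb9, which replaces Psmb6, rose from 42.6, 39.4 and 39.1 CPM in WT to 44.6, 48.0 and 43.4 CPM (log2 difference 0.17, with SE 0.05; edgeR adjusted p = 0.0115). The lowest Alox5-/- library was only slightly above the highest WT library, and without WT replicate 3 the adjusted p was 0.0573. Psmb10, which replaces Psmb7, fell from 36.3, 34.3 and 37.7 CPM in WT to 29.8, 32.3 and 29.9 CPM (log2 difference -0.24, with SE 0.05; edgeR adjusted p = 0.00149), with no overlap. Psmb8, which replaces Psmb5, was at 175, 177 and 171 CPM against 188, 176 and 183 CPM in WT. Its groups overlapped (log2 difference -0.06, with SE 0.03; edgeR adjusted p = 0.13), and without WT replicate 2 it was called lower (-0.09; 0.0269). Psmb8 (chr17:34197721-34201454, plus strand) and Psmb9 (chr17:34181987-34187764, minus strand) are neighbours in the class II region of the mouse histocompatibility locus, while Psmb10 lies at chr8:105935735-105938444 (minus strand; mm10, gene models of GENCODE vM21).

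The share of inducible over constitutive transcripts was then compared within libraries, which needs no scaling. Psmb9 counts per Psmb6 count for the Alox5-/- libraries were 0.311, 0.332 and 0.302, against WT values of 0.291, 0.270 and 0.250, a log2 ratio difference of 0.22 with no overlap. Psmb8 per Psmb5 differed by 0.02 and Psmb10 per Psmb7 by -0.12 on the log2 scale, both with overlap. The two-sided exact permutation p-values over 3 against 3 libraries were 0.1 for Psmb9/Psmb6, the smallest this design allows, 0.4 for Psmb8/Psmb5 and 0.2 for Psmb10/Psmb7, and 0.3, 0.4 and 0.3 after Benjamini-Hochberg adjustment over the 3 pairs. None of the 3 exchanges passed a threshold. Psmb9 overlaps its divergent neighbour Tap1, a peptide transporter of antigen presentation, and the 2 genes differed in direction: Tap1 fell from 60.8, 61.2 and 59.3 CPM in WT to 51.5, 53.0 and 51.8 CPM (log2 fold change -0.21; edgeR adjusted p = 0.000224).

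**Figure D3:**
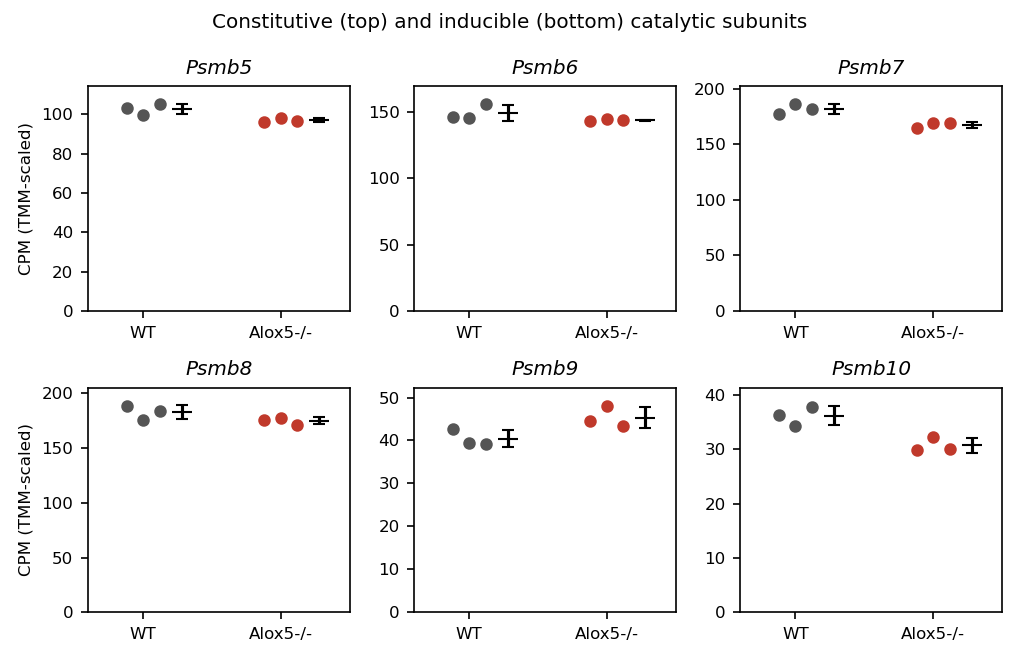
Level (y axis, TMM-scaled CPM, from 0) of the constitutive proteases Psmb5, Psmb6 and Psmb7 (top) and the inducible subunits that replace them, Psmb8, Psmb9 and Psmb10 (bottom), in each of 3 WT and 3 Alox5-/- libraries, with mean and SD beside the points. The Alox5-/- mean of Psmb9 is 45.3 CPM and its WT mean 40.4 CPM, and Psmb10 has 30.7 and 36.1 CPM.

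In the ATPase ring of the cap 5 of 6 subunits fell and none rose. Psmc3 (Rpt5; chr2:91054009-91066369, plus strand) had 215, 211 and 216 CPM in Alox5-/- and 262, 263 and 275 CPM in WT (log2 difference -0.32, with SE 0.03; edgeR adjusted p = 9.31e-07), the smallest adjusted p among the 47 genes. Psmc5 (Rpt6) had 157, 147 and 153 CPM against 184, 186 and 188 CPM (log2 difference -0.29, with SE 0.03; edgeR adjusted p = 3.73e-06). In both genes the gap between the groups was wider than the spread within either. Psmc4 (-0.21), Psmc2 (-0.20) and Psmc1 (-0.12) fell too, and Psmc6 was not called (-0.07; edgeR adjusted p = 0.106). The Psmc1 call was lost without Alox5-/- replicate 2 (edgeR adjusted p = 0.0829), with upper-quartile scaling (0.0508) and with total counts as the only scaling (0.108).

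Among the 14 non-ATPase genes 10 fell and 1 rose. Psmd1 (Rpn2), a large scaffold subunit of the base (chr1:86064387-86139151, plus strand), had 269, 261 and 261 CPM in Alox5-/- and 313, 331 and 322 CPM in WT (log2 difference -0.29, with SE 0.03; edgeR adjusted p = 2.68e-06). Its partner scaffold Psmd2 (Rpn1) changed by -0.26, also with no overlap. The lid subunits Psmd12 (-0.23), Psmd7 (-0.21), Psmd13 (-0.20), Psmd3 (-0.20), Psmd11 (-0.17) and Psmd6 (-0.17) fell together with the ubiquitin receptor Psmd4 (-0.11), whose call was lost with total counts as the only scaling (edgeR adjusted p = 0.0903). Psmd14, the lid deubiquitinase (-0.07; edgeR adjusted p = 0.0659), and the lid subunit Psmd8 (0.02; 0.539) were not called.

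The other 3 Psmd genes encode chaperones of cap assembly rather than subunits of the finished cap, and 1 fell, 1 rose and 1 was not called. Over all tested genes 27.0% were lower and 26.8% higher. Psmd5 (S5b) fell by 0.21 on the log2 scale. Psmd10 (gankyrin) was not called (-0.03; edgeR adjusted p = 0.669). Psmd9 (p27) rose from 42.5, 41.5 and 43.5 CPM in WT to 45.0, 50.7 and 45.8 CPM (log2 difference 0.15, with SE 0.05; edgeR adjusted p = 0.0204). The groups did not overlap, but Alox5-/- replicate 2 was well above its peers, and without it the log2 fold change was 0.10 (edgeR adjusted p = 0.0859). Without WT replicate 1 or WT replicate 2 the adjusted p was 0.0522 or 0.058. Psmd9 (chr5:123169413-123250131, plus strand) has a gene model that overlaps Hpd and 2 further annotated genes.

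Of the chaperones that build the core, 3 of 5 fell. Psmg4 (chr13:34162964-34178173, plus strand), which with Psmg3 helps the alpha ring to form, changed most among all 47 genes, from 14.7, 13.7 and 15.5 CPM in WT to 11.3, 11.9 and 10.7 CPM (log2 difference -0.37, with SE 0.07; edgeR adjusted p = 0.000461). It was also the tested gene with the fewest counts, 319 to 590 per library. Psmg3 fell by 0.24 on the log2 scale. Psmg1 (0.06; edgeR adjusted p = 0.249) and its partner Psmg2 (-0.08; 0.11) were not called. Pomp, the maturation factor that joins the half-barrels and is consumed by the new core, fell from 140, 147 and 142 CPM in WT to 126, 125 and 127 CPM (log2 difference -0.18, with SE 0.03; edgeR adjusted p = 0.00026), with no overlap.

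Of the 4 activators that can stand in for the cap 1 fell and none rose. The share that fell, 25%, was near the 27.0% of all tested genes that were lower. Psme3 (PA28 gamma), the nuclear activator, fell from 350, 360 and 351 CPM in WT to 315, 315 and 318 CPM (log2 difference -0.16, with SE 0.03; edgeR adjusted p = 0.000293). The interferon-inducible pair Psme1 and Psme2 (PA28 alpha and beta) overlapped between groups. Psme1 had 95.2, 102 and 92.3 CPM in Alox5-/- and 95.2, 92.1 and 93.9 CPM in WT (edgeR adjusted p = 0.394). Psme2 had 28.8, 27.2 and 27.0 CPM against 28.03, 29.2 and 29.1 CPM (edgeR adjusted p = 0.375). Its near-identical copy Psme2b drew 1457 to 2113 counts per library, more than the 795 to 1110 of Psme2, so the value of Psme2 is uncertain. Psme4 (PA200) had 145, 144 and 145 CPM against 154, 153 and 145 CPM (edgeR adjusted p = 0.171), and Psmf1, the inhibitor PI31, had 67.7, 66.1 and 67.8 CPM against 66.2, 62.9 and 66.7 CPM (edgeR adjusted p = 0.382). Both overlapped between the groups.

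Per kilobase of exon model, transcript levels of these genes spanned a 30.4-fold range in WT cells although most of their products are built into the same particle. Psma6 was highest at 178 CPM per kb, followed by Psmb2 (158), Psmc5 (133), Psmd7 (120) and Psme3 (120). Psmd9 (5.86), Psma3 (7.08) and Psmf1 (10.1) were lowest. The median was 99.0 CPM per kb for the cap ATPases, 79.9 for the constitutive beta ring, 57.4 for the alpha ring and 51.0 for the non-ATPases. It was 30.2 for the activators, 26.3 for the core chaperones and 21.2 for the inducible subunits, among which Psmb8 stood at 54.0, Psmb10 at 21.2 and Psmb9 at 11.0. These levels rest on the union of all annotated exons, so they depend on the length of the model, which was 7248 bases for Psmd9 and 1234 for Psma6.

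**Figure D4:**
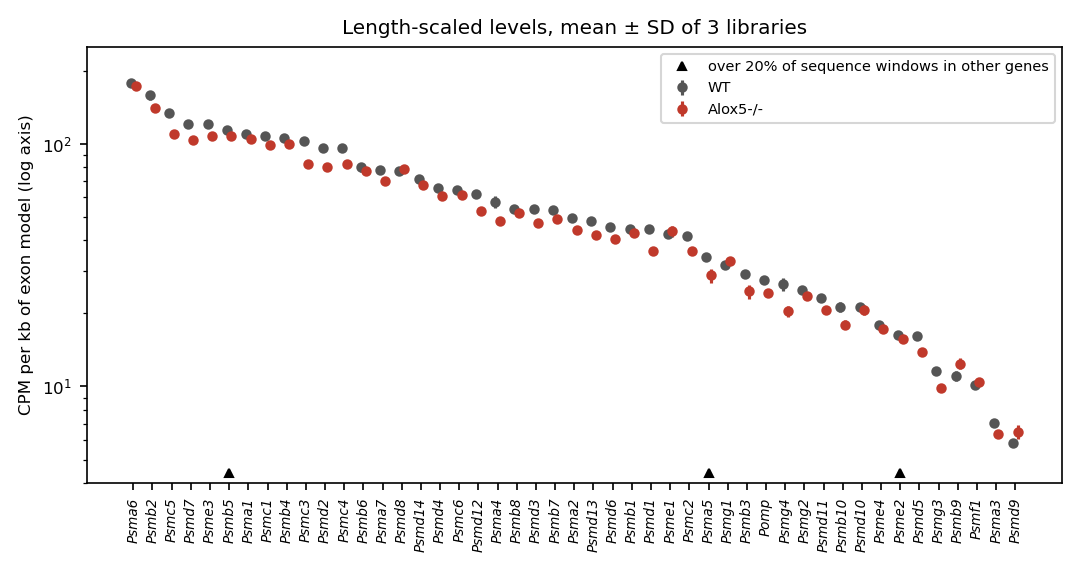
Length-scaled level (y axis, CPM per kb of exon model, log axis, mean ± SD of 3 libraries) of the 47 tested proteasome genes (x axis) in WT (grey) and Alox5-/- (red), ordered by WT level, with triangles under genes that share over 20% of their sequence windows with other genes. The order runs from Psma6 (178) to Psmd9 (5.86), and the red points lie below the grey for 41 genes.

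Genes that surround the proteasome were read from lists of cap-bound proteins, substrate shuttles, ubiquitin and its activating enzymes, transcription factors of proteasome genes together with proteins that process Nfe2l1, the class I pathway and downstream peptidases. Their counts are to be read against the 26.8% of all tested genes that were higher and the 27.0% that were lower. Nfe2l1, the factor that raises proteasome gene transcription when proteasome activity is short, rose from 399, 376 and 381 CPM in WT to 531, 557 and 542 CPM in Alox5-/- (log2 difference 0.50, with SE 0.03; edgeR adjusted p = 1.1e-08). Nfe2l2, its relative in the oxidant response, rose by 0.27, and Sel1l, of the machinery that retrotranslocates proteins from the ER, by 0.27. Nfya, the DNA-contacting subunit of NF-Y, fell from 120, 123 and 123 CPM to 95.5, 92.5 and 93.3 CPM (log2 difference -0.38, with SE 0.03; edgeR adjusted p = 1.76e-07). In this list 6 of 11 tested genes rose (54.5%) and 4 fell (36.4%), and the list's median difference was 0.12. Of the 6 that rose, Ddi2, Ngly1 and Sel1l are a protease, a glycanase and a retrotranslocation factor rather than transcription factors.

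The ubiquitin system and the proteins that carry substrates were mixed. Uba1, the main ubiquitin-activating enzyme, fell by 0.22 on the log2 scale, with Uba6 (-0.15) and the ubiquitin fusion gene Rps27a (-0.17), so that 3 of 6 fell (50%) and 0 rose. The Uba6 call was lost without Alox5-/- replicate 1 (edgeR adjusted p = 0.0703) or WT replicate 2 (0.0518) and with total counts as the only scaling (0.0596). Vcp, the segregase that extracts ubiquitinated proteins, fell from 283, 288 and 285 CPM in WT to 222, 210 and 214 CPM (log2 difference -0.40, with SE 0.03; edgeR adjusted p = 6.98e-08). Its cofactor Nploc4 fell by 0.33 and the shuttle Ubqln2 by 0.31, while Faf1, another Vcp cofactor, rose by 0.26. In that list of 12, 5 rose and 5 fell (41.7% each). Among 10 proteasome-associated proteins the shares called were below those of all tested genes, 20% in each direction. Here 2 fell, the ubiquitin receptor Adrm1 (-0.27) and the deubiquitinase Usp14 (-0.17). The 2 that rose were Akirin2 (0.36), which brings proteasomes into the nucleus, and Zfand5 (0.37), a stress-induced activator.

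Peptidases that trim proteasome products fell in 4 of 7 cases (57.1%) and rose in none: Thop1 (-0.23), Tpp2 (-0.19), Lap3 (-0.16) and Nln (-0.13), the last not called with total counts as the only scaling (edgeR adjusted p = 0.0665). The class I list held 4 higher and 6 lower genes of 17 (23.5% and 35.3%, median -0.01), shares near those of all tested genes. The peptide-loading chaperones Calr (-0.40) and Pdia3 (-0.32) fell, and Irf8 (0.38) and Jak2 (0.37), both of interferon signalling, rose. Irf1, an inducer of Psmb9, was not called (log2 fold change 0.07; edgeR adjusted p = 0.227).

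**Figure D5:**
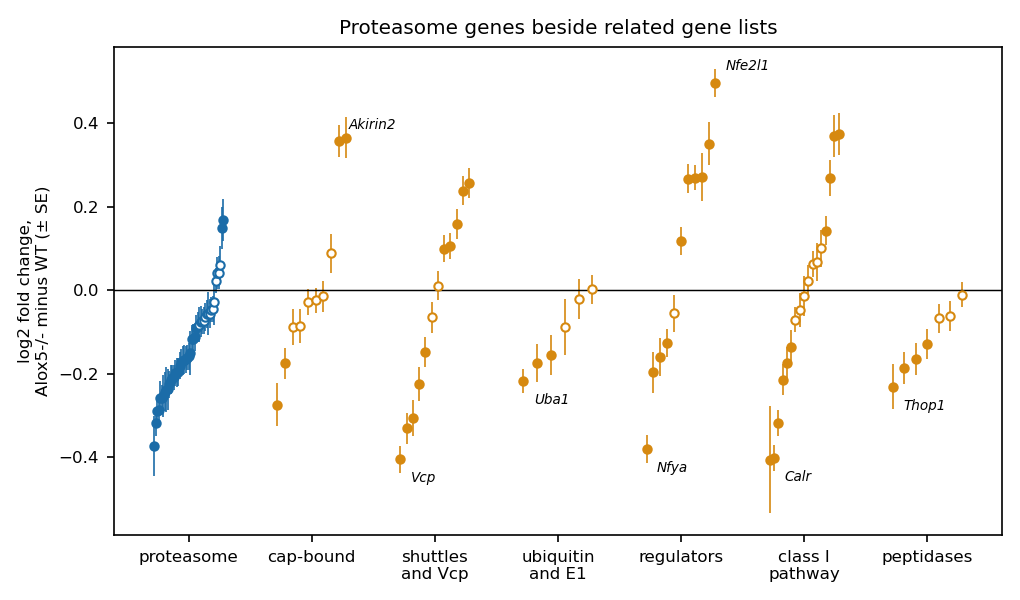
Log2 fold change (y axis, Alox5-/- minus WT, ± SE) of the 47 tested proteasome genes (blue) and of the tested genes of 6 related lists (orange), sorted within each list (x axis), filled where the adjusted p was under 0.05. Regulators reach 0.50 with Nfe2l1, and the proteasome genes stay between -0.37 and 0.17.

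Facts of the whole series bear on these values as follows. Gene counts were 28985597 to 38695948 per library, of which the 49 genes took 0.679 to 0.688% in Alox5-/- and 0.728 to 0.743% in WT. Alox5 itself was still transcribed in Alox5-/- cells, at 64.2 ± 1.87 against 105 ± 1.87 CPM (SD, n = 3 each), so it checks the labels only in part. Of the markers that define the labelled gate, Kit was lower in Alox5-/-, at 136 ± 2.73 against 160 ± 3.09 CPM (-0.23). Ly6a, which encodes Sca-1, was near 1 CPM (0.763 ± 0.158 and 1.06 ± 0.169) and not called, so the Sca-1+ part of the label had little support in these transcripts. The other 4 genes of that list, which are not part of the gate, were higher (Cd34, Flt3 and Ptprc) or lower (Cd48), and the list of 6 summed to 744 to 758 against 701 to 729 CPM. Other white blood cells also carry inducible subunits. Of 10 lymphoid markers only Nkg7 passed the filter, Cd3e and Ncr1 were at 0 in all libraries, and the list summed to 15.1 to 19.7 CPM in Alox5-/- and 10.1 to 14.4 CPM in WT. Nkg7 was called higher (0.58) and made up nearly all of that sum (17.4 against 11.7 CPM). Of 10 macrophage and dendritic markers 4 passed, 2 of them higher (Cd68 and Itgax) and 1 lower (Adgre1), with Marco at 0 and sums of 91.2 to 93.8 against 80.4 to 85.4 CPM. Of 11 granulocyte and monocyte markers 3 were higher and 6 lower, and their sums, of which Ctsg made up the most (2712 against 2229 CPM), overlapped (5467 to 5585 against 5217 to 5551 CPM). Within that list Mpo was at 65.6 ± 7.76 against 197 ± 13.4 CPM (-1.59), S100a8 at 8.04 ± 0.713 against 25.3 ± 1.01 CPM (-1.66) and S100a9 at 7.36 ± 0.474 against 16.7 ± 2.34 CPM (-1.18), larger differences on the log2 scale than that of any proteasome gene. Itgam (-0.21), Elane (-0.17) and Ly6c2 (-0.14) were lower by less. The 3 higher genes were Ly6g (0.53), Ctsg (0.28) and Fcgr3 (0.21), and Prtn3 and Csf1r were not called. Of 8 erythroid and platelet markers 3 passed and 1 was lower, Itga2b, with sums of 3.23 to 3.75 against 5.35 to 5.95 CPM. Of 7 stromal and endothelial markers 3 passed and 2 were higher, Pecam1 and Pdgfrb, with sums of 207 to 212 against 184 to 187 CPM. Pecam1 made up most of that sum (196 against 174 CPM), while Col1a2, Cxcl12, Lepr and Cdh5 did not pass the filter. The part of these marker differences in the values of the proteasome genes was not tested.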

How the data were processed

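Poly-A RNA from 3 Alox5-/- and 3 WT libraries had been made into cDNA with a SMARTer kit, per the labels. The authors deposited raw read counts per gene, with HTSeq, mm10 and DESeq2 named in the submitters' processing notes. No source used here names the aligner, tool versions, annotation release or strandedness. A set of 5 summary rows that name no gene (39.1 to 40.0% of all reads, with reads of several alignments making up 24.4 to 24.8% of all reads) stayed out of library sizes and tests, and 27 date-like symbols were restored from gene identifiers.

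The whole table was fitted in R 4.3.3 with edgeR 4.0.16 (TMM scaling, filterByExpr, quasi-likelihood F-test, no covariate), with adjusted p-values over all tested genes and a threshold of 0.05. SE came from the coefficient and F statistic. The biological coefficient of variation was 3.70%. The fit was tested on simulated data. Floors (3 counts for a count of 0) cover counting error only, whereas SE and SD include the spread between libraries. Alternatives were DESeq2 1.42.0, limma-voom (limma 3.58.1), DESeq2 size factors, upper-quartile and total-count scaling, no filter or at least 5 CPM in 3 libraries, a robust fit, the replicate number as a block, each library left out and a minimum fold of 1.2. Positions, exon lengths and shared 50-base windows came from GENCODE vM21 on the same build.

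The gene family and so its members, the lists, motifs and the rule for genes shown by library were chosen with earlier results of these data known. By that rule, the inducible subunits and their constitutive partners, Pomp, Psme1 to Psme4 and Psmf1 are shown by library, with up to 5 other members called in each direction by size of change, and up to 4 called genes of each related list by smallest p, of which only some are shown by library. Tap1 and Irf1 were named outside that rule, after their values were seen. Some single-gene values of the related lists are not reported here. Of the listed related genes, Paaf1 and Dpp3 were not analysed here.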

Additional observations from a re-analysis of the deposited data

How the results depend on the processing

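The count of proteasome genes that fell, 30, was 24 to 31 when the tool, scaling, filter, fit or block was changed or 1 library was left out, and those 24 with total counts as the only scaling were all among the 30. A minimum fold of 1.2 left 4 lower (Psmg4, Psmc3, Psmd1 and Psmc5) and 0 higher, 0 lower in the constitutive core and 3 in the cap. With that minimum 4210 genes were called over the whole table, 2424 higher and 1786 lower, the latter 13.0% of the 13705 tested. The 4 of 47 proteasome genes were a smaller share than this 13.0%, so their excess of falls was not seen at this setting. The count that rose, 2, was 1 to 2 with a library left out. In the constitutive core the 10 falls became 6 with total counts as the only scaling, which moved the median of all genes by 0.04 on the log2 scale. Psmd10, not called, changed sign with that scaling (0.014), and with 1 library left out its value ran from -0.0662 to 0.0091, the latter without Alox5-/- replicate 2. The cause was not tested.

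Of 1050 single-gene values under alternatives, 1003 kept direction and side of the threshold, 41 lost the call, 4 gained it and 2 changed sign. The calls lost most often were those of Psmb5 (12 of 15 settings), Psmb4 (9) and Psma3 (7). Same-numbered libraries did not deviate together (correlations of -0.02, -0.08 and 0.02), and 1 of 6 libraries correlated best with its own number. With the replicate block 28 proteasome genes fell and 2 rose. The ratio of Psmb9 to Psmb6 stayed higher in Alox5-/- with each library left out (log2 difference 0.17 to 0.27). Psmg4, with 319 to 590 counts per library, had the fewest counts among tested members. Groups of 3 were not tested for an outlying library.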
